A study of Mus musculus with 15 samples.

Results

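UCP1-positive beige adipocytes from inguinal fat of mice given CL316243 (CL) were set against brown adipocytes (BAT), sorted as UCP1-positive from the brown fat of mice left untreated. The comparison rests on 6 of the 15 arrays analysed, titled CL 1, CL 3 and CL 4 and BAT 1, BAT 3 and BAT 4, and covers all 25206 probe sets. CL316243 is an agonist of the beta3-adrenergic receptor, through which sympathetic nerves switch on heat production in fat. The other 9 arrays serve as side values: UCP1-positive inguinal adipocytes after roscovitine (RS, 2 arrays), which blocks cyclin-dependent kinases and whose cells are labelled brite, or rosiglitazone (RG, 3 arrays), an agonist of PPARG, and UCP1-negative inguinal white adipocytes of untreated mice (WAT, 4 arrays). All mice were 8 to 10 weeks old, on chow, and were UCP1/Tomato reporter mice, although the gate is labelled UCP1(GFP), so the reporter behind the sort is not settled. The labels give no dose, treatment time, sex, batch or statement that arrays came from separate animals, and p-values therefore measure the spread between these samples. Depot and treatment differ together between CL and BAT: no untreated UCP1-positive inguinal cells and no CL316243-treated brown adipocytes were among the arrays. What follows from the depot and what follows from the drug cannot be told apart.

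Brown adipocytes burn fatty acids in mitochondria whose inner membrane is made leaky to protons by UCP1, so that fuel is turned into heat in place of ATP. Beige adipocytes carry the same uncoupling protein but arise within white depots, above all the inguinal one, after cold or beta-adrenergic stimulation. The depots come from different embryonic precursors and differ in the Hox and T-box genes that record position along the body. Whether strongly stimulated beige cells reach the expression profile of brown cells is the question this comparison addresses.

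Values are log2 expression values as the authors deposited them, 1 per probe set and array. On this scale a difference of 1 is a doubling, and array medians lay at 3.40 to 3.43 in CL and 3.42 to 3.47 in BAT. No detection calls were used, so a gene near or under those medians is not shown to be above background, and its difference is given on the log2 scale with no fold. Across probe sets, CL arrays correlated with each other at 0.963 to 0.976, BAT arrays with each other at 0.955 to 0.966, and CL with BAT arrays at 0.942 to 0.961. CL correlated with RG at 0.952 to 0.962 and with WAT at 0.876 to 0.959. The adipocyte label held in both groups: the mean level of 30 mature adipocyte genes was 9.52 to 10.05 in CL arrays and 9.67 to 9.81 in BAT arrays, and none of them passed the test. Adipoq, the adipokine adiponectin, measured 9.91, 9.87 and 10.51 in CL, against 9.75, 9.72 and 10.08 in BAT. The Y-linked gene Ddx3y measured 5.31 to 6.08 in CL and 5.62 to 6.30 in BAT, and neither it nor Xist was called.

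A total of 517 probe sets (2.05%) passed an adjusted p of 0.05 by limma between CL and BAT, where limma used all 15 arrays and Benjamini-Hochberg adjustment over all probe sets. Of these, 160 (0.635%) were higher and 357 (1.42%) lower in CL, and 71 and 118 of them differed by at least 1 log2 unit. For scale, the same fit called 724 probe sets (2.87%) between CL and RG, 321 (1.27%) between CL and RS, 3596 (14.3%) between RG and BAT, and 6350 (25.2%) between CL and WAT. In 199 of 357 lower calls both group means were dim, under 3.39, the median of the array medians, against 22 of 160 higher calls. Many probe sets lie under such a median by construction, and the share over all probe sets was not computed. Olfactory and vomeronasal receptors, which fat is not known to use, made up 48 of the lower and 7 of the higher calls. They held 1357 of the 25206 probe sets. The 10th percentile of the arrays was 1.97 to 2.03 in CL and 2.11 to 2.15 in BAT, and its part in the dim calls was not tested. Among the 6036 probe sets whose mean over all arrays was above 5, 59 were called higher and 15 lower.

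**Figure D1:**
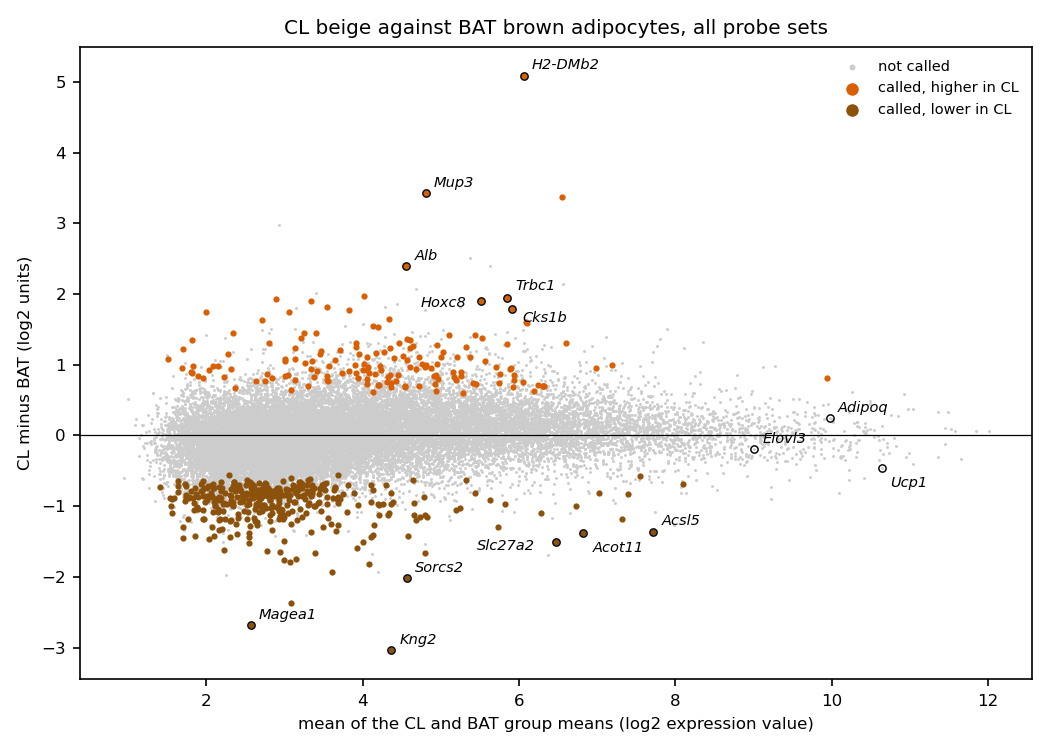
Difference between CL and BAT (log2 units, vertical) against the mean of both group means (log2 expression value, horizontal) for all 25206 probe sets. Coloured points passed an adjusted p of 0.05, and circles mark named genes. Both group means lay under 3.39 in 199 of 357 lower and 22 of 160 higher calls. Acsl5, Acot11 and Slc27a2 were lower at high levels, and Ucp1 and Elovl3 were not called.

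How many probe sets passed depended on the arrays in the fit. With only the 6 CL and BAT arrays in the model, 41 passed (20 higher, 21 lower), of which 37 were among the 517. Leaving out CL 1 or CL 3 left 128 or 122 calls, CL 4 250, BAT 1 248, BAT 4 285 and BAT 3 512. WAT 4 and RS 3 stood apart from their groups in the means of some cell type lists, and without both of them 846 probe sets passed. With each array centred on its median, 189 of 457 calls were higher, and with quantile normalization 302 of 712, against 160 of 517 (30.9%) as deposited. In all, 61 probe sets were called in the 15-array fit and with each of the 6 arrays left out in turn.

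The gene that set both groups apart most firmly was Kng2, a kininogen gene whose protein is a precursor of kinins, the peptides that widen vessels. Its level was 2.74, 2.84 and 2.95 in CL, against 6.18, 5.93 and 5.54 in BAT. Kng2 was lower in CL (log2 difference -3.04 ± 0.23, SE, n = 3 each, adjusted p = 1.67e-05 by limma). All 3 CL arrays lay near the means of the RS, RG and WAT groups, which ran from 2.28 to 2.72, so BAT stood alone. The call held with each of the 6 arrays left out in turn (adjusted p of at most 0.000362) and with the 6 arrays alone (0.000415). Kng1, a paralogue, measured 1.52 to 1.78 in CL and 1.46 to 2.40 in BAT and was not called.

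The best known heat-producing genes, Ucp1, Elovl3, Cidea and Cox7a1, were not called between CL and BAT. Ucp1 measured 10.53, 10.52 and 10.19 in CL, against 11.18, 11.22 and 10.22 in BAT. CL 4 and BAT 4 were almost level, while the other BAT arrays stood above all CL arrays. The difference was -0.46 with a 95% confidence interval of -1.52 to 0.60 (adjusted p = 0.670 by limma), so a decrease of over 1 log2 unit cannot be set aside at this number of arrays. Both groups were sorted on UCP1, so this level is not independent of the gate. Elovl3, an elongase that makes very long fatty acids in stimulated brown fat, measured 9.05, 8.98 and 8.70 in CL, against 9.47, 9.42 and 8.43 in BAT (difference -0.20, interval -1.0 to 0.61, adjusted p = 0.830 by limma). Here the groups overlapped. Cidea, a lipid droplet protein, and Cox7a1, part of the last respiratory complex, differed by -0.63 (interval -1.55 to 0.30) and -0.59 (interval -1.29 to 0.11), with adjusted p-values of 0.470 and 0.355 by limma. Dio2, the deiodinase that activates thyroid hormone, Ppargc1a, a coactivator that drives mitochondrial genes, and Prdm16, a regulator of brown fate, differed by -0.55, -0.64 and -0.29 and did not pass. Gk, glycerol kinase, and Fgf21, a hormone of stressed fat and liver, differed by 0.05 and 0.06 and did not pass either.

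Of 28 measured thermogenic genes, 4 fell and 0 rose in CL, against 1.42% and 0.635% of all probe sets. In 24 the difference was negative, and the median difference was -0.44, against -0.0167 over all probe sets. The mean level of the list was 6.09, 6.10 and 6.38 in CL 1, CL 3 and CL 4, against 6.84, 6.83 and 6.36 in BAT 1, BAT 3 and BAT 4. The highest CL array and the lowest BAT array therefore met. The 4 genes that fell were Slc27a2, Acot11, Gmpr and Pank1. With CL 1 left out only 1 of them passed, with CL 3, BAT 1 or BAT 3 left out 2, and with CL 4 or BAT 4 left out 3. None passed in the 6 arrays alone, where 3 of the 4 lay at adjusted p-values of 0.0548 to 0.0561 by limma.

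Among the genes that fell were Slc27a2, Acsl5 and Acss1 of the fatty acid uptake and activation list, but that list did not move one way. Of its 23 measured members 3 fell and 1 rose, against 1.42% and 0.635% of all probe sets. A positive difference was seen in 14, and the median was 0.10. In 7 every CL array lay above every BAT array, against 9.42% of all probe sets. In 5 every CL array lay below, a share not computed over all probe sets. Slc27a2, a fatty acid transporter that also activates very long chains, measured 5.98, 6.21 and 4.97 in CL, against 7.35, 7.44 and 6.89 in BAT. Every CL array lay below every BAT array, with CL 4 lowest, and Slc27a2 was 2.84-fold lower (difference -1.51 ± 0.36, SE, n = 3 each, adjusted p = 0.0452 by limma). This call was lost with any of the 6 arrays left out (adjusted p 0.0646 to 0.126). Acsl5, an acyl-CoA synthetase, measured 7.06, 7.01 and 7.05 in CL, against 8.65, 8.48 and 8.07 in BAT. The CL arrays were nearly identical and all lower, a 2.57-fold decrease (difference -1.36 ± 0.18, SE, adjusted p = 0.00509 by limma). The Acsl5 call held with each of the 6 arrays left out (at most 0.0248) and in the 6 arrays alone (0.0484).

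Acot11, an acyl-CoA thioesterase induced by cold in brown fat, measured 5.72, 6.28 and 6.37 in CL, against 7.47, 7.85 and 7.21 in BAT. It was 2.62-fold lower (difference -1.39 ± 0.24, SE, adjusted p = 0.0133 by limma), and passed without each array but CL 1 (0.0521). Pank1, a pantothenate kinase that starts coenzyme A synthesis, measured 6.69, 6.56 and 6.93 in CL, against 7.86, 8.12 and 7.73 in BAT. No arrays overlapped, and the 2.26-fold decrease (adjusted p = 0.0277 by limma) was lost without CL 1, CL 3, BAT 1 or BAT 3 (0.0659 to 0.0923). Acss1, the mitochondrial acetyl-CoA synthetase, measured 5.97, 6.47 and 6.24 in CL, against 7.36, 6.97 and 7.36 in BAT. It was 2.00-fold lower (difference -1.0 ± 0.21, SE, adjusted p = 0.0265 by limma), a call lost without CL 1, CL 4, BAT 1 or BAT 4 (0.0610 to 0.0895). Gmpr, the guanosine monophosphate reductase of purine salvage, measured 5.16, 4.96 and 5.12 in CL, against 6.12, 6.79 and 6.22 in BAT. Its 2.46-fold decrease (adjusted p = 0.0126 by limma) held with each array left out (at most 0.0457).

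The promoters of 5 genes that fell in CL are shown so that the sequence at their starts can be compared. Each window runs from 250 bases before to 50 after the annotated start in RefSeq (GRCm38.p6), 5' to 3' on the strand of the gene. Capitals mark AGGTCA on either strand, the core that many nuclear receptors bind, PPARs and ERRs among them. The windows are chr16:23029052-23029351 (minus strand) for Kng2, chr2:126552774-126553073 (plus) for Slc27a2, chr4:106804958-106805257 (minus, the first of 2 listed) for Acot11, chr19:55253119-55253418 (plus) for Acsl5 and chr13:45507194-45507493 (plus) for Gmpr.
Kng2: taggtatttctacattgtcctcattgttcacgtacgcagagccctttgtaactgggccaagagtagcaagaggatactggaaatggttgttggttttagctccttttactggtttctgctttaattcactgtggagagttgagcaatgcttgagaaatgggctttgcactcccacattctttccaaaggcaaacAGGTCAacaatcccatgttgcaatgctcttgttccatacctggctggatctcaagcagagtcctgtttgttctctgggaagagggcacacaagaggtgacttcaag
Slc27a2: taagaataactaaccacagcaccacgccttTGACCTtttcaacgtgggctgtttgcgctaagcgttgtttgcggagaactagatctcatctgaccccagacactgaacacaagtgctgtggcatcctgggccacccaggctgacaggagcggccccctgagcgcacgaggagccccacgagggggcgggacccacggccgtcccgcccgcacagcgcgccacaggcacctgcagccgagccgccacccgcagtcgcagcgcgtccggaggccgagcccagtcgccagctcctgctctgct
Acot11: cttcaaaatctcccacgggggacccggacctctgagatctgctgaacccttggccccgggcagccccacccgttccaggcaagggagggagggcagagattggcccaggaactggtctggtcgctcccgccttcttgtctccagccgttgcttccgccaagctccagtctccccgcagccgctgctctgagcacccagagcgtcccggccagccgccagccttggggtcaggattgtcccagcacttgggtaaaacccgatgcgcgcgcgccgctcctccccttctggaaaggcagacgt
Acsl5: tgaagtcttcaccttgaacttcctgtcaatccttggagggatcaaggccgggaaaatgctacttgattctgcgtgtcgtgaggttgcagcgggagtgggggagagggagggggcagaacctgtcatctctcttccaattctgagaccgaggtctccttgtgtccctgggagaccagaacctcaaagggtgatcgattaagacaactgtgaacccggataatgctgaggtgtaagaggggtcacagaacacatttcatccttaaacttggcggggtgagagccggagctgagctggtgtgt
Gmpr: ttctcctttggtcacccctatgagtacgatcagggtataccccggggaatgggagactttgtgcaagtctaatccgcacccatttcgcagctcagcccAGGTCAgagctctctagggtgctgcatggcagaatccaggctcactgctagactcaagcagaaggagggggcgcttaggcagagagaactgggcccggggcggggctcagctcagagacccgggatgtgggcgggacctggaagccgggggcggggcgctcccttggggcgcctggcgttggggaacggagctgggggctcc
AGGTCA occurred 1 time each in the windows of Kng2, Slc27a2 and Gmpr and in neither of the others, and 16.3% of 32851 RefSeq windows of this length hold it. The same letters repeated after a gap of 1 base (in 0.0396% of windows) and the cAMP response element TGACGTCA (in 1.79%) were in none of the 5. Both strands were searched, and the repeat contains the shorter motif. A match describes letters in the window and not a bound site.

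Setting CL beside the other treated beige groups placed these genes among the inguinal cells, although the comparisons share the CL arrays. Slc27a2 was higher in CL than in RG by 2.19 log2 units (adjusted p = 0.0124 by limma) and than in RS by 2.02 (0.0314). Acsl5 was higher by 1.98 (0.000371) and 1.50 (0.00455), Acot11 by 2.00 (0.00275) and 1.72 (0.0106), and Pank1 by 1.01 (0.0441) and 1.26 (0.0439). By these calls the 4 genes lay below BAT but above RG and RS. Against BAT, however, Slc27a2 was lost with any of the 6 arrays left out, and Pank1 without CL 1, CL 3, BAT 1 or BAT 3. Calls of single genes against RG and RS were not followed in alternative fits, and RS holds 2 arrays. Elovl3 was higher in CL by 3.49 than in RG (0.00145) and by 3.72 than in RS (0.00182), and Ucp1 by 2.24 (0.0307) and 3.17 (0.0202). Gmpr did not differ from RG or RS by this test (0.30 and 0.40, adjusted p = 0.481 and 0.414), and Kng2 was near its dim level in all inguinal groups. Of the 28 thermogenic genes, 7 were higher in CL than in RG (1.65% of all probe sets were) and 8 than in RS (0.797%), and 0 were lower in either (1.22% and 0.476%).

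**Figure D2:**
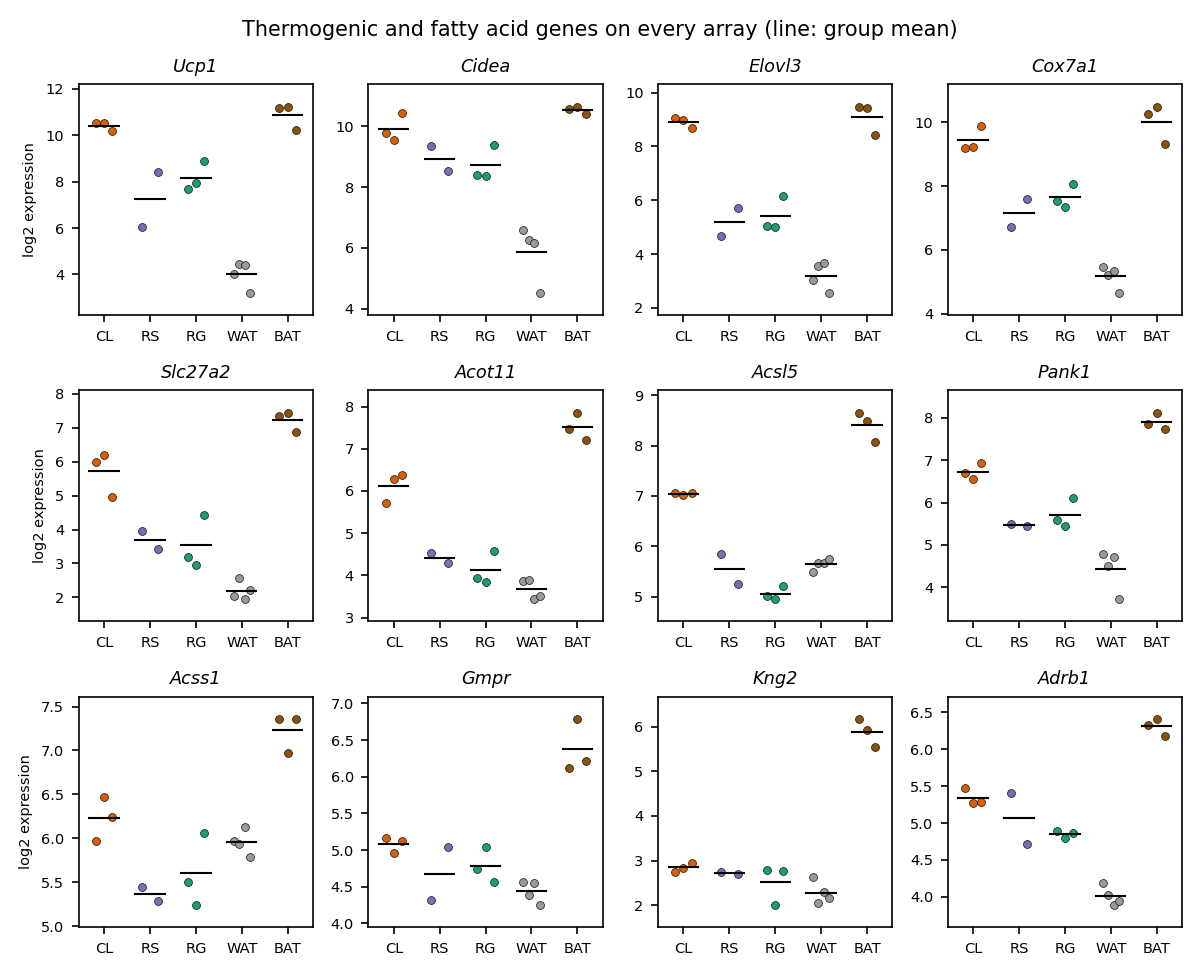
Log2 expression (vertical) of 12 genes on every array of the CL, RS, RG, WAT and BAT groups, with a line at each group mean. Ucp1, Cidea, Elovl3 and Cox7a1 overlap between CL and BAT, while the 3 CL arrays lie below the 3 BAT arrays for the other 8 genes.

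The remaining fuel pathways showed little that passed the test. Of 23 fatty acid oxidation genes 0 were called, against 2.05% of all probe sets. Their median was -0.16, and 19 had a negative difference. Acaa2, the thiolase of mitochondrial beta-oxidation, measured 9.86, 9.87 and 10.21 in CL, against 10.56, 10.63 and 10.22 in BAT (difference -0.49, adjusted p = 0.181 by limma). Likewise 0 of 23 TCA cycle genes and 0 of 39 genes of complexes II to V were called, with medians of -0.18 and -0.21. Of 29 genes of glycolysis and glucose uptake and 21 of lipogenesis 0 were called, with medians of -0.16 and -0.33. In this order, 18, 34, 23 and 18 genes had a negative difference. The share of negative differences over all probe sets was not computed. In each of these lists the list means of the CL and BAT arrays overlapped. At an unadjusted p of 0.05, 4761 of all probe sets passed, so small shifts of these lists are not settled by 0 calls. Of 35 complex I genes 29 had a negative difference, with a median of -0.22. The single call among them, near the 2.05% of all probe sets, was Ndufs3, a core subunit. It measured 4.99, 4.38 and 4.62 in CL, against 5.73, 5.75 and 5.69 in BAT, a 2.08-fold decrease (adjusted p = 0.0277 by limma) that was kept without CL 1 but lost without each of the other 5 arrays (0.0538 to 0.101). Slc27a3, another member of the fatty acid transporter family, rose by 0.71 in CL (adjusted p = 0.0453 by limma). That call was lost with any of the 6 arrays left out (0.0559 to 0.132).

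Creatine cycling and adrenergic signalling each held 1 call. The creatine call was 1 of 9 genes, against 2.05% of all probe sets. These 9 genes had a median of -0.44 and 6 negative differences, while the adrenergic and cAMP pathway list had a median of -0.04. The creatine list mean was 4.39 to 4.49 in CL, against 4.62 to 4.77 in BAT. Alpl, the alkaline phosphatase that splits phosphocreatine in a futile cycle, measured 4.67, 5.30 and 5.11 in CL, against 5.64, 5.81 and 6.07 in BAT. It was 1.76-fold lower (adjusted p = 0.0442 by limma), lost with any array left out (0.0624 to 0.140), and was higher in CL than in RG by 1.34 (0.00740) and than in RS by 1.75 (0.00296). Phospho1, a phosphatase also tied to this cycle, measured 7.50, 7.69 and 7.07 in CL, against 8.11, 7.91 and 7.75 in BAT and did not pass (difference -0.50, adjusted p = 0.279 by limma), though it was higher in CL than in RG by 2.17 (0.00155) and than in RS by 2.49 (0.00182). Adrb1, the beta1-adrenergic receptor, measured 5.47, 5.27 and 5.28 in CL, against 6.33, 6.41 and 6.18 in BAT. The groups lay well apart, and Adrb1 was 1.95-fold lower (difference -0.97 ± 0.17, SE, adjusted p = 0.0152 by limma), lost only without CL 3 (0.0568) among the 6 and in the 6 arrays alone (0.0722). Adrb3, the receptor that CL316243 binds, differed by 0.07 (adjusted p = 0.955 by limma). Of 48 genes of adrenergic receptors and the cAMP pathway 1 was called, and of 26 early genes induced by cAMP 0 were, both near the 2.05% of all probe sets.

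Genes of body position differed in both directions. Hoxc8 measured 5.96, 6.43 and 7.01 in CL, against 4.97, 4.93 and 3.79 in BAT. It was 3.74-fold higher in CL (difference 1.90 ± 0.34, SE, n = 3 each, adjusted p = 0.0149 by limma). Hoxc10, another posterior Hox gene, measured 4.86, 5.19 and 5.18 in CL, against 4.19, 3.81 and 3.85 in BAT, and was 2.18-fold higher (difference 1.13 ± 0.15, SE, adjusted p = 0.00509 by limma). Both calls held with each of the 6 arrays left out (at most 0.0488 and 0.0248) and both lay at 0.0591 in the 6 arrays alone. Hoxa5, a more anterior gene, measured 2.98, 3.04 and 2.89 in CL, against 3.98, 4.65 and 4.02 in BAT. It was lower in CL (difference -1.25, adjusted p = 0.0265 by limma), kept only without BAT 1 or BAT 4 (otherwise 0.0642 to 0.0724). Hoxb3 measured 4.04, 3.24 and 4.09 in CL, against 2.98, 2.86 and 3.03 in BAT, an increase of 0.83 log2 units (adjusted p = 0.0470 by limma) kept only without CL 3 (otherwise 0.0841 to 0.141).

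The same direction was seen without a call in Tbx15, a T-box factor of white and brown depots, which measured 5.11, 5.0 and 5.09 in CL, against 4.50, 4.53 and 3.18 in BAT (difference 1.00, adjusted p = 0.126 by limma). Hoxa9 had a difference of 0.98 (0.0754) and Hoxc9 of 0.01 (0.979). Of the 35 position genes, 3 rose and 1 fell, against 0.635% and 1.42% of all probe sets, with a median of 0.07. Between CL and RG and between CL and RS 0 of the 35 were called, which is near the shares of all probe sets called there (2.87% and 1.27%). Zic1 and Lhx8, transcription factors used as markers of classical brown fat, differed by -0.49 and -0.76 (adjusted p = 0.251 and 0.173 by limma). All CL arrays lay below all BAT arrays for Lhx8 but not for Zic1.

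**Figure D3:**
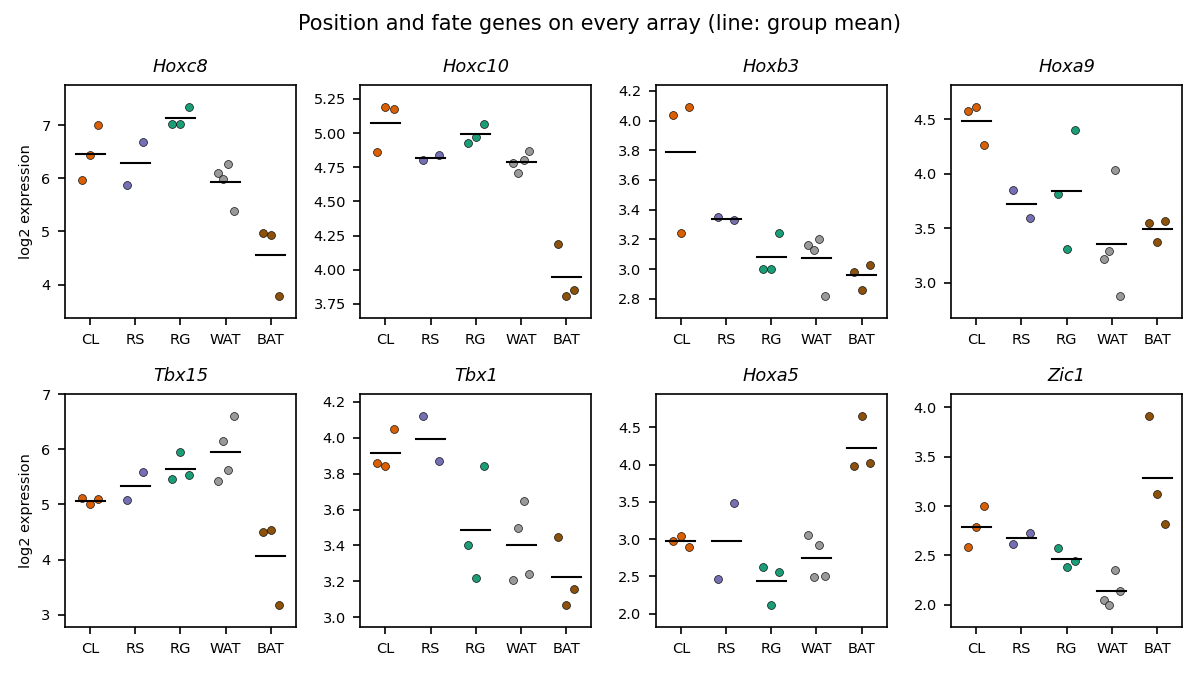
Log2 expression (vertical) of 8 position and fate genes on every array of the CL, RS, RG, WAT and BAT groups, with a line at each group mean. Hoxc8 and Hoxc10 are higher and Hoxa5 lower in CL than in BAT, and the RS, RG and WAT means lie nearer to CL for these 3 genes.

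Few beige, brown and white markers were called, although the mean level of each list did not overlap between the groups. The white-selective mean was 5.65, 5.62 and 5.82 in CL, against 5.31, 5.22 and 5.29 in BAT, and the beige-selective mean 5.34, 5.40 and 5.21 in CL, against 5.14, 5.19 and 5.16 in BAT. The classical brown-selective mean lay the other way, at 4.76, 4.84 and 4.77 in CL, against 5.06, 4.98 and 4.99 in BAT. The beige-selective mean was also 5.22 to 5.46 in WAT, 5.13 in RS and 4.95 to 5.055 in RG. That list therefore did not single out UCP1-positive inguinal cells. The white-selective mean was 6.04 to 6.07 in RS, 6.11 to 6.22 in RG and 4.945 to 5.945 in WAT. It was thus highest in the UCP1-positive RS and RG arrays, and CL lay within the WAT range. The white-selective list therefore did not single out UCP1-negative white cells. Of 15 beige-selective markers 0 were called, against 2.05% of all probe sets, with a median of 0.10. Tbx1, the marker with the smallest p, measured 3.86, 3.84 and 4.05 in CL, against 3.45, 3.07 and 3.16 in BAT, and did not pass (difference 0.69, adjusted p = 0.0689 by limma). Tmem26 and Tnfrsf9, surface markers of beige cells, differed by 0.10 and 0.05. Of 17 classical brown-selective markers, Acot11 fell and none rose, against 1.42% and 0.635% of all probe sets, with a median of -0.08. Of 19 white-selective markers, Hoxc8 rose and none fell, against 0.635% and 1.42% of all probe sets. Their median was 0.42, and 9 had every CL array above every BAT array, against 9.42% of all probe sets. Lep, the hormone leptin, measured 7.34, 7.40 and 7.56 in CL, against 6.49, 6.54 and 5.68 in BAT. The arrays did not overlap but Lep did not pass (difference 1.20, adjusted p = 0.193 by limma). Retn, the adipokine resistin, differed by 0.62 (0.507). Gdf15, a stress cytokine, measured 4.38, 4.51 and 4.49 in CL, against 3.48, 3.82 and 3.32 in BAT and was higher by 0.92 log2 units (adjusted p = 0.0417 by limma), kept only without BAT 3 among the 6 (otherwise 0.0848 to 0.108).

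**Figure D4:**
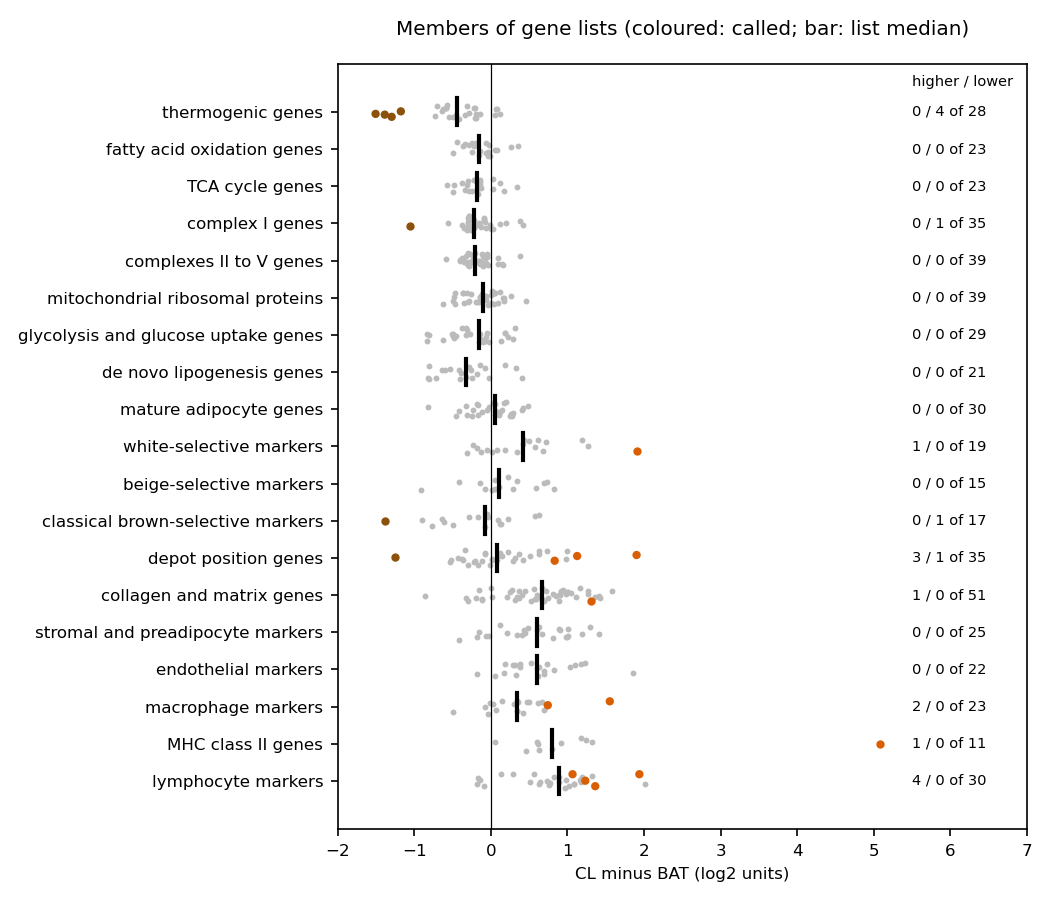
Difference between CL and BAT (log2 units, horizontal) of each measured member of 19 gene lists, with a bar at the list median. Coloured members passed an adjusted p of 0.05 by limma and the numbers give members called higher and lower. Most thermogenic, fatty acid oxidation, TCA cycle and respiratory complex genes lie left of 0. Most lymphocyte, MHC class II, matrix, stromal and endothelial genes lie right of 0.

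The largest increases in CL were led by genes of immune cells and of liver. H2-DMb2, a chaperone that loads peptides onto MHC class II, measured 8.88, 9.93 and 7.01 in CL, against 3.47, 2.03 and 5.05 in BAT. It was higher in CL (difference 5.09 ± 0.74, SE, n = 3 each, adjusted p = 0.00774 by limma), with CL 4 lowest in its group and BAT 4 highest, and the call held with each array left out (at most 0.0300). H2-DMb2 averaged 6.18 in RS, 7.52 in RG and 7.41 in WAT, so BAT was lowest. CL was not called against RG (difference 1.09, adjusted p = 0.447 by limma), RS (2.43, 0.153) or WAT (1.20, 0.214). Its near-identical neighbour H2-DMb1 differed by only 0.61 and was not called, and a probe set may not separate such copies fully. Mup3, a major urinary protein, measured 5.56, 6.23 and 7.78 in CL, against 3.32, 2.06 and 3.89 in BAT, and Alb, serum albumin, 5.47, 5.26 and 6.54 in CL, against 3.47, 3.19 and 3.41 in BAT. Both are secreted by the liver. Mup3 rose by 3.43 and Alb by 2.40 log2 units (adjusted p = 0.0427 and 0.0281 by limma), and both calls were lost with any of the 6 arrays left out (0.0607 to 0.118 and 0.0606 to 0.0887). Mup3 averaged 4.69 to 5.59 and Alb 5.13 to 6.52 in the RS, RG and WAT groups, so BAT was lowest for both.

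The other named increases were Hoxc8, the protocadherins Pcdha3 and Pcdhga1, Sla and Cd69 of lymphocytes, Cks1b of the cell cycle, Kansl2 of a histone acetyltransferase complex, the placental hormone gene Prl3d1 and Impdh2 of guanine nucleotide synthesis. Their differences ran from 1.60 to 1.97. Cks1b measured 7.08, 6.69 and 6.66 in CL, against 4.92, 5.70 and 4.45 in BAT, and Kansl2 5.55, 4.94 and 4.99 in CL, against 3.77, 3.52 and 3.26 in BAT. Both were well separated (adjusted p = 0.0103 and 0.00509 by limma) and held with each array left out, as did Hoxc8 and Pcdha3. Cks1b averaged 6.18 to 6.89 and Kansl2 4.74 to 5.35 in the RS, RG and WAT groups, so BAT was lowest here too. The calls of Pcdhga1, Cd69 and Impdh2 were kept in 1 of the 6 fits with an array left out, that of Sla in 2 and that of Prl3d1 in 3. The named decreases beside Kng2 and Slc27a2 were Magea1, Sorcs2, Zfp991, Atp1b1, Nlrp9a, Pcdha7, Tdpoz2, Nlrp9c, Camsap3 and Cyp4a31. In 9 of the 12 decreases the CL mean was under 3.39. With an array left out, Zfp991 was kept in 0 of the 6 fits, Slc27a2 in 0, Sorcs2 in 1 and Pcdha7 in 3, and the other 8 in all 6. Atp1b1, a subunit of the sodium pump, had the highest BAT mean of those 10, with 4.05, 4.28 and 3.60 in CL, against 5.19, 5.63 and 6.08 in BAT (difference -1.66 ± 0.26, SE, adjusted p = 0.0101 by limma, at most 0.0342 with an array left out). The clustered protocadherins, the Nlrp9, Tdpoz and Mup families share long similar stretches, so a value may be mixed between copies.

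Some lymphocyte markers rose in CL. Of 30 measured, 4 rose and 0 fell, against 0.635% and 1.42% of all probe sets. The median difference was 0.89, and 16 had every CL array above every BAT array, against 9.42% of all probe sets. Trbc1, a constant segment of the T cell receptor, measured 7.23, 7.04 and 6.19 in CL, against 4.81, 4.95 and 4.88 in BAT, and was 3.84-fold higher (difference 1.94 ± 0.34, SE, adjusted p = 0.0149 by limma). Cd3e, a chain of the same receptor, measured 5.44, 5.45 and 4.85 in CL, against 3.83, 3.82 and 4.00 in BAT (2.57-fold higher, adjusted p = 0.0245 by limma). The B cell genes Cd22 and Cd79b were higher by 1.23 and 1.07 log2 units (adjusted p = 0.0138 and 0.0325 by limma). CL 1 and CL 3 carried most of this: without CL 1 only 1 of the 30 passed, without CL 3 none did, and without CL 4 7 did. Without WAT 4 and RS 3, 8 passed. Without BAT 1, 2 passed, and in the 6 arrays alone Trbc1 and Cd3e passed (0.0394 and 0.0484). Cd4 and Cd8a, which define the main T cell classes, stayed at 2.63 to 3.29 and 2.51 to 3.25 in CL, against 2.70 to 3.23 and 2.94 to 3.21 in BAT.

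The mean level of the lymphocyte list was 4.58, 4.77 and 3.87 in CL 1, CL 3 and CL 4, against 3.57, 3.62 and 3.56 in BAT 1, BAT 3 and BAT 4. All 11 MHC class II genes had a positive difference, with a median of 0.80, but only H2-DMb2 passed, against 0.635% of all probe sets called higher. Cd74, the invariant chain, measured 9.15, 9.30 and 8.61 in CL, against 8.19, 8.43 and 6.46 in BAT (difference 1.33, adjusted p = 0.272 by limma). Of 23 macrophage markers 2 rose, against 0.635% of all probe sets: Aif1 by 1.55 and Cd163 by 0.74 (adjusted p = 0.0298 and 0.0432 by limma). Aif1 was kept only without BAT 3 (otherwise 0.0666 to 0.0930) and Cd163 was lost with any array left out (0.0531 to 0.130). The macrophage list mean was 5.23, 5.47 and 4.66 in CL, against 4.61, 4.98 and 4.63 in BAT, and overlapped. In sorted bulk samples, more cells of a type and more RNA per cell cannot be told apart, and the part of such cells in the other differences was not tested.

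Markers of other cells of fat tissue mostly had positive differences in CL, and how many passed depended on the arrays in the fit. Endothelial markers had a median of 0.61 with 0 of 22 called, against 2.05% of all probe sets. Their list mean was 6.68, 7.20 and 6.20 in CL, against 5.53, 6.22 and 6.46 in BAT. It was 4.06 to 5.97 in RS, 4.98 to 6.19 in RG and 5.68 to 6.92 in WAT. Stromal and preadipocyte markers had a median of 0.60 with 0 of 25 called. Their list mean was 6.31, 6.64 and 5.75 in CL, against 5.43, 5.95 and 5.645 in BAT, and overlapped. It was 5.15 to 6.15 in RS, 6.13 to 6.66 in RG and 7.03 to 8.25 in WAT. Of 51 collagen and matrix genes, 1 rose and 0 fell, against 0.635% and 1.42% of all probe sets, with a median of 0.66. Their list mean was 5.77 to 6.37 in CL, against 5.38 to 5.63 in BAT. It was 5.59 to 5.90 in RS, 6.06 to 6.29 in RG and 6.55 to 7.74 in WAT. In 23 of the 51 every CL array lay above every BAT array, against 9.42% of all probe sets. Without WAT 4 and RS 3, 10 of the 51 passed as higher, and without CL 1, CL 3, CL 4, BAT 1 or BAT 3 none did. The gene that rose was Mfap4, a microfibril protein, at 3.57, 3.18 and 3.61 in CL, against 2.14, 2.16 and 2.13 in BAT (difference 1.31, adjusted p = 0.0450 by limma), lost with any array left out (0.0750 to 0.118). Sparc, a matrix glycoprotein, measured 11.23, 11.22 and 11.20 in CL, against 10.47, 10.57 and 10.87 in BAT and just missed the threshold (adjusted p = 0.0584 by limma). Ly6c1, an endothelial surface gene, had the smallest p of its list (difference 1.18, adjusted p = 0.0732 by limma).

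Markers of muscle and nerve lay the other way. Myh2 and Myh7, skeletal myosins, were the 2 of 25 muscle markers called, both lower in CL, against 1.42% of all probe sets. Myh2 measured 2.18, 2.21 and 2.24 in CL, against 2.88, 3.18 and 3.33 in BAT (difference -0.92, adjusted p = 0.0166 by limma), and both groups lay under the array medians. Prph, a filament of peripheral neurons, measured 2.38, 2.08 and 2.55 in CL, against 3.30, 3.09 and 2.88 in BAT (difference -0.75, adjusted p = 0.0453 by limma), a call lost with any of the 6 arrays left out (0.0546 to 0.150). No epithelial, erythroid, mesothelial, mast cell or pericyte marker was called, against 2.05% of all probe sets.

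**Figure D5:**
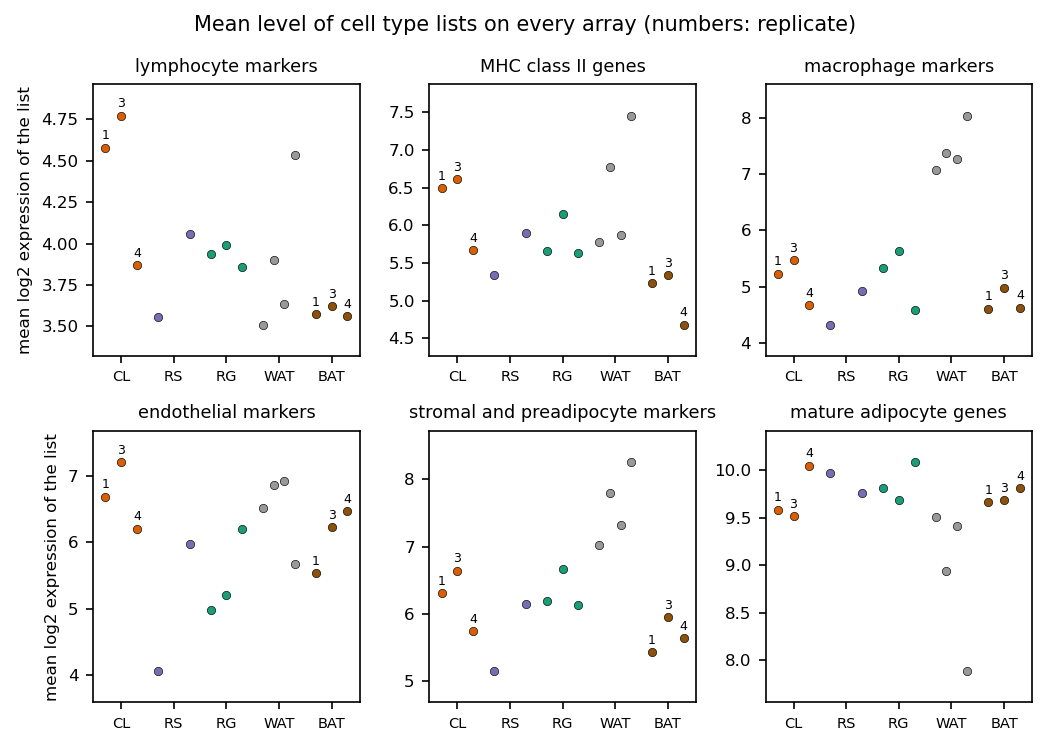
Mean log2 expression (vertical) of 6 cell type lists on each array of the CL, RS, RG, WAT and BAT groups, with replicate numbers beside the CL and BAT points. CL 1 and CL 3 stand above CL 4 for lymphocyte and MHC class II genes, and all 3 CL arrays stand above all 3 BAT arrays for both lists.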

How the data were processed

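Gene expression was measured on 1-colour Affymetrix arrays from 2 ng of RNA, prepared with the WT Pico kit according to the labels. The deposited values are log2 expression values, and RMA, Affymetrix Expression Console and affy 1.36.1 are listed, with no order or settings, in the submitters' processing notes. Of the 25206 probe sets, 23740 were given a symbol by matching the Entrez number of the probe set to RefSeq and 1466 had none.

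Groups came from the labels. limma 3.58.1 in R 4.3.3 (lmFit, contrasts.fit, eBayes) fitted 1 mean per group over all 15 arrays, with 10 residual degrees of freedom, two-sided, and Benjamini-Hochberg adjustment over all probe sets with a threshold of 0.05. The spread of the other groups is thus shared with CL and BAT. The comparisons with RG, RS and WAT use the same fit, and those with BAT share the BAT arrays. In simulated data for CL against BAT over 25206 probe sets, the fit recovered 58% of 100 genes changed by 1 log2 unit and 98% of 100 changed by 2. It also called 11 unchanged probe sets. The simulated noise was independent and normal, with 1 spread per probe set for all groups and no outlying arrays, so these rates may not hold for the real arrays. The number of arrays limits the precision.

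Members of 53 gene lists and the genes always given were chosen with earlier results of these data known, and no list was tested. Lists are described by counts and medians, and 32 of 1195 list genes had no probe set. Named genes were the 12 largest increases and 12 largest decreases among called probe sets with no overlap of arrays, leaving out small RNAs, predicted genes, immunoglobulin and T cell receptor segments and the odour, pheromone and taste receptors, then up to 6 list members with the smallest p, then 24 genes given whatever their values. Genes named outside this rule were chosen after their values were seen. Ddx3y and Xist were among these. CL and BAT share replicate numbers 1, 3 and 4. After group means were removed, same-numbered arrays correlated at -0.291, -0.160 and -0.235, so the numbers were not used as pairs. Promoter windows were taken from RefSeq (GRCm38.p6). Alternatives covered the arrays in the fit, replicate blocks, normalization, dim probe sets, variance prior, array weights, the size of the difference and each array left out.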

Additional observations from a re-analysis of the deposited data

How the results depend on the processing

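With 3 arrays a group, the number of calls between CL and BAT moved widely. Among the named genes and leading list members, no called difference changed sign under any alternative. The sign of the other calls was not followed. Against 517 calls (160 higher, 357 lower), the 6 arrays alone gave 41 (20 and 21). The replicate block gave 7 (1 and 6) over 15 arrays and 6 (4 and 2) over the 6 arrays, and for 0 of the 6 arrays was the same-numbered array of the other group the closest. Kng2, Kansl2, Magea1 and Nlrp9c were among the 7. A mean above 4 gave 75 (51 and 24), and a mean above 5, chosen after the data were seen, gave 36 (25 and 11). Quantile normalization gave 302 higher calls, array weights 106, and leaving out WAT 4 and RS 3 gave 846 (337 and 509 lower). A minimum of 1 log2 unit gave 189 (71 and 118). Leaving out 1 of the 6 arrays gave 122 to 512 calls, 29 to 153 higher and 90 to 359 lower. Fewer arrays or probe sets entered several of these fits, and otherwise the cause was not tested.

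CL against RG (724 calls) gave 1 with the replicate block, 442 with quantile normalization, 305 and 164 with means above 4 and 5, 1189 without WAT 4 and RS 3, 2615 with array weights and 199 to 826 with 1 array left out. CL against RS (321 calls) gave 13 with the block, 121 without WAT 4 and RS 3, 20 with array weights, 212 with a mean above 5 and 41 to 319 with 1 array left out. These alternatives were chosen after the data were seen. The median over all probe sets moved from -0.017 to -0.006 and 0.023 under quantile normalization and median centring. The thermogenic median stayed at -0.402 to -0.473 and the lymphocyte median at 0.890 to 0.966.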

Other observations

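Other gene groups gave few calls between CL and BAT. Over all probe sets 2.05% were called and 0.635% were called higher, so 1 call is not read as a result about its list. Of 19 genes around pyruvate entry and glyceroneogenesis, Pdk3, a kinase that closes the pyruvate gate, rose, with 4.32, 4.77 and 4.51 in CL, against 3.48, 3.74 and 3.71 in BAT (difference 0.89, adjusted p = 0.0309 by limma). Of 35 proteasome genes, Psmb8, a subunit of the immunoproteasome, rose, with 6.29, 5.99 and 6.31 in CL, against 4.82, 5.67 and 5.49 in BAT (1.83-fold, adjusted p = 0.0342 by limma). C1ra, a complement protease, was the 1 of 20 complement genes that rose, with 5.29, 5.30 and 4.78 in CL, against 3.21, 3.87 and 4.38 in BAT (2.47-fold, adjusted p = 0.0265 by limma). All 3 calls were lost with at least 3 of the 6 arrays left out in turn. Pik3ca, the catalytic subunit of a kinase below the insulin receptor, rose by 0.60 (adjusted p = 0.0493 by limma). It was kept only without BAT 3.

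Genes with a mean above 5, singled out after their values were seen, included Igkc, an antibody constant segment, with 8.64, 9.40 and 6.69 in CL, against 4.13, 5.33 and 5.13 in BAT (difference 3.38, adjusted p = 0.0457 by limma). This call was kept without CL 4 but lost without each of the other 5 arrays (0.0642 to 0.155), with differences of 2.80 to 4.16. Dhx8, an RNA helicase of splicing, measured 5.56, 5.58 and 5.53 in CL, against 4.43, 4.46 and 4.44 in BAT (difference 1.11 ± 0.15, SE, adjusted p = 0.00509 by limma) and passed with each of the 6 arrays left out. Impa2, an inositol monophosphatase, measured 5.79, 5.72 and 5.71 in CL, against 6.73, 7.04 and 6.73 in BAT (difference -1.09 ± 0.15, SE, adjusted p = 0.00628 by limma) and also passed with each left out. Of 44 cell cycle genes 0 were called, and of 25 genes of the unfolded protein response 0 were, against 2.05% of all probe sets. Cks1b was not on the cell cycle list. Of the 44 cell cycle genes 30 had a positive difference, with a median of 0.19. In 11 every CL array lay above every BAT array, against 9.42% of all probe sets, and in 3 every CL array lay below. The mean of the cell cycle list was 4.11 to 4.18 in CL, 3.90 to 3.95 in BAT and 4.12 to 4.38 in WAT. A small shift is therefore not settled by 0 calls.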
